A study of Homo sapiens with 6 samples.

Results

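The genes described here build the route by which newly made secretory and membrane proteins enter the endoplasmic reticulum (ER) and travel to the Golgi apparatus and back. They were matched by a pattern of gene symbols that uses no measured value, although this group of genes was proposed with earlier results of these data known. The pattern covers subunits of the signal recognition particle and its receptor, the Sec61 translocon and its partner complex TRAP, signal peptidase, the COPII and COPI vesicle coats, the SEC22, TMED and KDEL receptor families, and the ARF GTPases with their ARFGAPs. The symbol pattern matched 72 of the 19571 genes in the deposited expression table. Of these 72 genes, 64 had a mean of at least 1 FPKM (a level scaled to transcript length and library size) over all libraries and were tested.

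The cells were LNCaP, a human prostate cancer line that grows as luminal-type, androgen-responsive cells. One group stably carried Flag-tagged KDM4B, a histone lysine demethylase, and the other carried the empty vector. Each group has 3 RNA-seq libraries, replicates 1, 2 and 4 for KDM4B and replicates 1, 2 and 3 for the vector. The titles of all KDM4B libraries share a tag that the vector titles lack, and the labels do not explain it. Whatever the tag stands for cannot be told apart from the group, and the ribosomal RNA share given below also splits by group. All cells spent 3 days in RPMI medium with 10% CFBS, an abbreviation the labels do not spell out, before total RNA was taken. The labels say neither whether the stable cells were pools or single clones nor whether replicates came from separate cultures. The p-values therefore reflect the spread among these 6 libraries alone, which may be technical. In bulk RNA, fewer cells of a type and less RNA per cell cannot be told apart.

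Secretory proteins are recognised by the signal recognition particle as their signal sequence leaves the ribosome, passed to its receptor on the ER, and threaded through the Sec61 channel, where signal peptidase removes the signal. COPII coats bud cargo vesicles from the ER, and COPI coats, recruited by ARF GTPases, return escaped ER proteins and cargo receptors from the Golgi. Luminal prostate cells are secretory cells, and their best known product is the secreted protease KLK3 (prostate-specific antigen).

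KDM4B itself checks the labels only weakly, with 26.4 ± 0.71 FPKM where it was introduced and 25.1 ± 0.29 FPKM with the vector (SD, n = 3 each). The groups did not overlap, with 25.8 FPKM as the lowest value of one and 25.3 FPKM as the highest of the other. The log2 difference of 0.07 missed the threshold as deposited (limma, adjusted p = 0.113). It passed at 0.31 after the scaling described below (adjusted p = 1.9e-05), at 0.21 without ribosomal RNA (0.000306) and at 0.35 in the event counts (edgeR, adjusted p = 0.000438), and none of these amounts to a 2-fold difference. The groups are therefore called by their labels, and every direction rests on those labels. Ribosomal RNA took 9.61% ± 1.29 (SD, n = 3) of all FPKM in the libraries labelled KDM4B and 0.255% ± 0.189 (SD, n = 3) in the vector libraries, where 1 library, replicate 1, held 0.473% and the mean without it was 0.146%. All 8 luminal markers were above 1 FPKM, and their sum ranged from 1610 to 1678 FPKM in the libraries labelled KDM4B and from 3965 to 4121 FPKM in the vector libraries. The basal marker KRT14 stayed at 0.05 to 0.15 FPKM and 0.10 to 0.41 FPKM. Of 7 stromal, immune and endothelial markers, 2 reached 1 FPKM, none was listed at 0 in every library, and their sum was 5.15 to 5.40 FPKM and 5.33 to 5.72 FPKM. The part of the ribosomal RNA and of the luminal markers in what follows was not tested beyond the rescaled values given beside the counts.

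Secretory pathway genes were lower in the libraries labelled KDM4B across nearly every step of the route. The FPKM of the 72 genes summed to 3943, 4008 and 4058 for the label KDM4B and to 6045, 5879 and 5968 for the vector, so that the groups lay far apart and the first mean was 67.1% of the other. As a share of all FPKM in a library, these genes took 0.895% ± 0.0076 (SD, n = 3) against 1.25% ± 0.017 (SD, n = 3). With ribosomal RNA left out of the total, the shares were 0.990% ± 0.0186 (SD, n = 3) and 1.25% ± 0.0185 (SD, n = 3).

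Gene by gene, 59 of the 64 tested genes (92.2%) fell and 0 rose (limma on log2(FPKM + 1), Benjamini-Hochberg adjusted over 12148 genes at 0.05). At an unadjusted p under 0.05 the number of rises was also 0. Among all tested genes 60.3% fell and 13.4% rose, so most of the transcriptome was lower on this scale too. The median log2 fold change was -0.54 for the members and -0.22 for all genes. The 5 genes that did not pass were SEC61A2, ARF5, ARFGAP2, SEC23IP and TMED10P1. The FPKM of 59 members lay lower in every library labelled KDM4B than in any vector library, which held for 61.7% of all tested genes. ARFGAP2 alone among the tested members lay higher without overlap, as did 14.6% of all tested genes.

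Because so many genes shared the downward shift, each library was also divided by its median ratio to the other libraries, which brings the median of all genes to -0.00. After this scaling 46 of 64 members (71.9%) fell and 7 (10.9%) rose, against 34% of all genes in each direction. The scaled median of the members was -0.30, and 55 of 64 members had a log2 fold change below 0, against 50.1% of all genes. When FPKM were instead rescaled to a total without ribosomal RNA, 54 members (84.4%) fell and 2 rose, against 45% and 23.9% of all genes, and the members' median was -0.40 beside -0.09. Fold changes on the log2(FPKM + 1) scale understate the change of low genes.

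**Figure D1:**
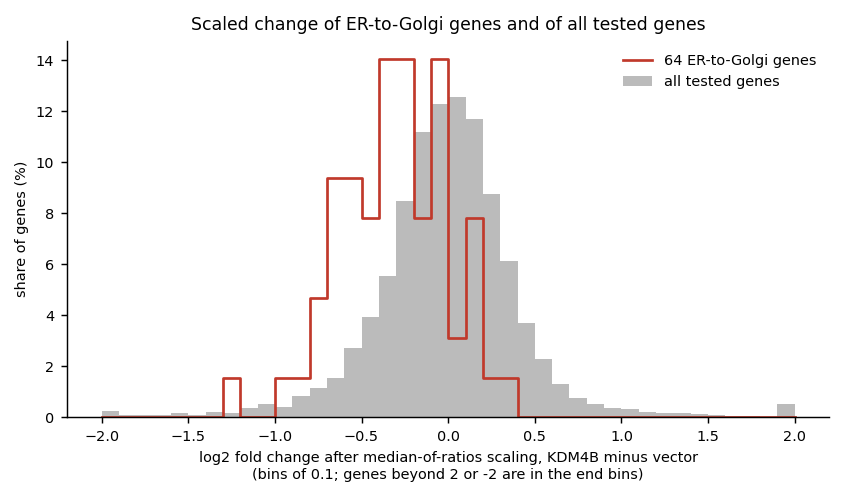
Distribution of the scaled log2 fold change, KDM4B minus vector (x axis, bins of 0.1), as the share of genes in percent (y axis). The outline of the 64 secretory pathway genes sits to the left of the grey bars of all 12148 tested genes, with medians of -0.30 and -0.00.

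A count-based reading of the same libraries used the deposited reads of skipped-exon events, taking for each gene the event with the most reads. In edgeR's quasi-likelihood test 36 of 58 members with such an event (62.1%) fell and 3 (5.17%) rose, against 22.9% and 22.8% of 8556 genes. The median was -0.28 for the members and -0.00 for all genes. Those 3 rises were ARFGAP2, ARF5 and SEC23IP.

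**Figure D2:**
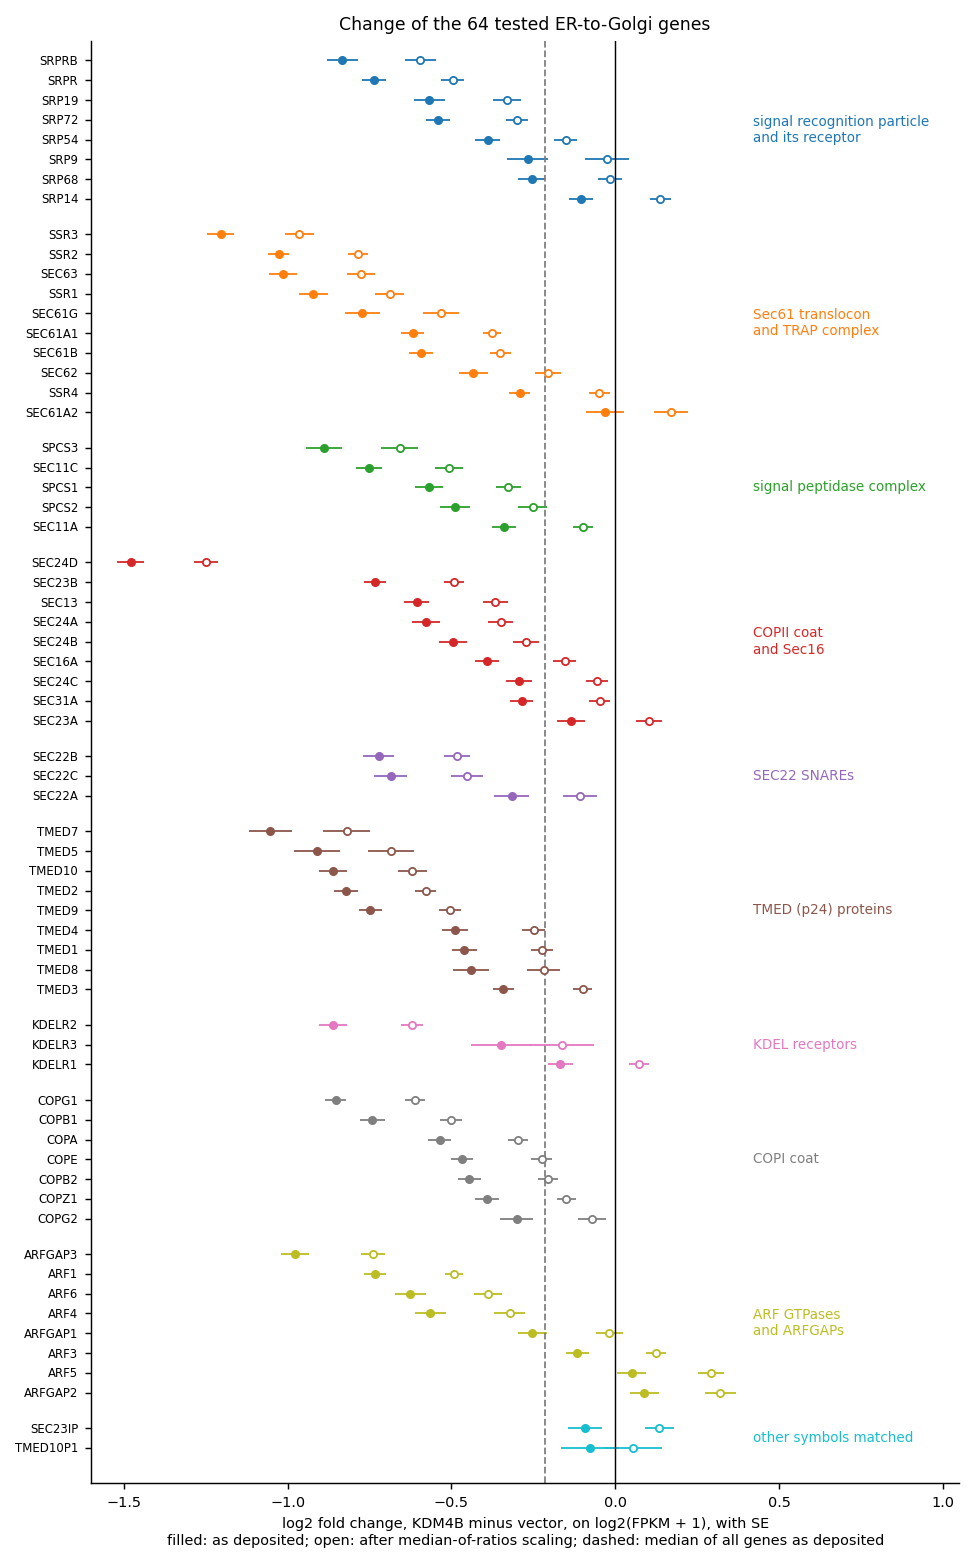
Log2 fold change with its SE (x axis) of each of the 64 tested genes (y axis, grouped and coloured by function), as deposited (filled points) and after median-of-ratios scaling (open points). Filled points run from -1.48 for SEC24D to 0.09 for ARFGAP2, and the dashed line marks the median of all genes, -0.22.

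Promoter sequences are shown for members at both ends of the scaled range, 2 that fell and 2 that rose. RefSeq's promoter table of the build GRCh38.p14 (250 bases before to 50 after each gene's start) held 61 of the 72 members. The genes shown are SSR3 and TMED7, the largest scaled falls with an entry, and ARFGAP2 and ARF5, the largest scaled rises. The SSR3 window is chr3:156555068-156555367 (minus strand), TMED7 is chr5:115625987-115626286 (minus), ARFGAP2 is chr11:47176830-47177129 (minus) and ARF5 is chr7:127588161-127588460 (plus). Each is written 5′ to 3′, and capitals would mark a motif of the ER stress response.
SSR3: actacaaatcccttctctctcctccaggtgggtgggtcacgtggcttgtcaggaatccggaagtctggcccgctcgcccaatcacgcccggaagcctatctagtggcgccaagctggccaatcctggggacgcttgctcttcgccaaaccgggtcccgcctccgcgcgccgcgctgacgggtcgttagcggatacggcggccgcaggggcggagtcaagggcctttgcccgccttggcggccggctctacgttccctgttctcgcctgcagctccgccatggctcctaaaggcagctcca
TMED7: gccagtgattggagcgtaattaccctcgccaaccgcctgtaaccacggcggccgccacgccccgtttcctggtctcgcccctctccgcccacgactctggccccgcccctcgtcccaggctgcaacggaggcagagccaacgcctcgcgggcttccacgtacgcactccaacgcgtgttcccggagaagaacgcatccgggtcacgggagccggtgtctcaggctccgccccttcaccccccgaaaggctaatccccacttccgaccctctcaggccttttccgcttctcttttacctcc
ARFGAP2: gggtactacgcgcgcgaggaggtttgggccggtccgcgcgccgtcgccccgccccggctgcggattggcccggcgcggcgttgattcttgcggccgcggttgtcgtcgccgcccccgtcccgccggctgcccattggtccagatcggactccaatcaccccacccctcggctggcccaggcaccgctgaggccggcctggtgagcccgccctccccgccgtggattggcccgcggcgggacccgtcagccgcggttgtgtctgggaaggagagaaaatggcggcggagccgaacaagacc
ARF5: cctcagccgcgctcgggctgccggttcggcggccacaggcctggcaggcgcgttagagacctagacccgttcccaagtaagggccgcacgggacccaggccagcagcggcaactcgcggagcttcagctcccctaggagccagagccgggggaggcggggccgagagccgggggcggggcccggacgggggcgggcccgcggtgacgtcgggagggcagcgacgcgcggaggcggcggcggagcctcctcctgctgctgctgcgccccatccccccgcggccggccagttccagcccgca

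The searched motifs were the ER stress elements ERSE (CCAAT, 9 free bases, CCACG) and ERSE-II (ATTGG, 1 free base, CCACG), the UPRE core TGACGTG, known as a binding motif of XBP1, and the CARE motif of ATF4 (TGATG, 1 free base, AA), each on both strands. Of these motifs, 0 were in the promoters of SSR3, TMED7, ARFGAP2 and ARF5. The UPRE core stood in 13 of the 61 member promoters (21.3%) and in 2.0% of all 27305 promoters. That background was not matched to the members in expression or GC content. Whether the difference is particular to these genes was therefore not tested. Its holders were ARF1, COPA, COPB1, COPB2, COPE, KDELR3, SEC13, SEC16A, SEC16B, SEC23A, SEC24A, SEC62 and SRP19. ERSE and ERSE-II were in 0 member promoters (0.0806% and 0.0549% of all), and CARE was in 1, SRPRB (1.64%, against 3.67% of all). The core was thus in 5 of 10 COPII promoters and 4 of 8 COPI promoters, but in 1 of 10 translocon promoters and 0 of 8 TMED promoters. It was found in 10 of 39 promoters of genes that fell after scaling, in 1 of 7 of those that rose and in 1 of 9 of those not called. A match describes letters in these windows and not a bound site.

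The 4 COPI promoters with the core were chosen for display after the search, since they show where it lies. The window is chr1:160343201-160343500 for COPA, chr11:14499762-14500061 for COPB1, chr3:139389631-139389930 for COPB2 and chr19:18919338-18919637 for COPE, all on the minus strand. Capitals mark TGACGTG or its reverse complement CACGTCA, and positions count from 1 at the 5′ end.
COPA: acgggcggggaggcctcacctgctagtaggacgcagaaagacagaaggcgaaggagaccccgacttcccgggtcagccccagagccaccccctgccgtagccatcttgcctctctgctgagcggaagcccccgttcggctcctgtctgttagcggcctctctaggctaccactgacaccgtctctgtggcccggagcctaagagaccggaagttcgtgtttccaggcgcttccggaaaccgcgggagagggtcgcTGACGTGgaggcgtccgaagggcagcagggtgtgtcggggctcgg
COPB1: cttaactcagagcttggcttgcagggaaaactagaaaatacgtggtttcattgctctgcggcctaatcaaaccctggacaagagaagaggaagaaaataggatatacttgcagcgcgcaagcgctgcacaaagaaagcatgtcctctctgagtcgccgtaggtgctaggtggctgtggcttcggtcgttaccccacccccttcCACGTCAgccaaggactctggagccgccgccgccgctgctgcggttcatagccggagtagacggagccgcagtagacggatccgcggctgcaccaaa
COPB2: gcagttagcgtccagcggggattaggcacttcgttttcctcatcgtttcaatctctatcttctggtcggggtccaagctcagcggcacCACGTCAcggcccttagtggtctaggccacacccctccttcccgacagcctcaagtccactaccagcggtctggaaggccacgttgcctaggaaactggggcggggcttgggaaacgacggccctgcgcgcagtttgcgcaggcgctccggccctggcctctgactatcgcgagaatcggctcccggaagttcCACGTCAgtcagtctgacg
COPE: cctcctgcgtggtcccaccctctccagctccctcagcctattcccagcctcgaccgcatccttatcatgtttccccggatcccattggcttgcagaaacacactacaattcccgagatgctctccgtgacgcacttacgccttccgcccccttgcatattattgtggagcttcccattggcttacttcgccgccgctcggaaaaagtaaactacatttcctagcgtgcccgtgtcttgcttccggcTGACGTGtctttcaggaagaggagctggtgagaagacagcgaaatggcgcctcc

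The core begins at position 256 in COPA, 204 in COPB1, 89 and 282 in COPB2 and 247 in COPE. Over all 13 promoters there were 14 matches, 10 of which began within 50 bases of the annotated start. Where the core lies in the promoters of other genes was not counted, so this number has no background beside it.

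Capture of nascent chains at the ER is the first step, and the 2 receptor genes had larger fold changes than the 6 genes of the particle. Values per library are given from here on in the order replicates 1, 2 and 4 labelled KDM4B against vector replicates 1, 2 and 3. SRPR, the receptor subunit that docks the particle, measured 48.3, 47.6 and 46.6 FPKM against 81.8, 79.3 and 78.1 FPKM. Its log2 fold change was -0.74 (SE 0.036, limma, adjusted p = 1.08e-08), with no overlap between groups. SRPRB, which anchors SRPR in the membrane, measured 29.98, 30.04 and 28.85 FPKM against 57.4, 52.2 and 51.1 FPKM, and fell by 0.83 on the log2 scale (adjusted p = 3.28e-08). Both remained called after scaling, at -0.50 and -0.59.

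All 8 tested genes of the particle and its receptor fell as deposited. After scaling 5 fell, 1 (SRP14) rose and 2 (SRP9 and SRP68) did not pass. Counts of this and every later group stand beside the shares over all tested genes. As deposited 60.3% fell and 61.7% lay lower without overlap, and after scaling 34% fell and 34% rose. Most of the transcriptome fell as deposited too, so counts on that scale say little about single small groups. The scaffold subunit SRP72 measured 40.3, 40.7 and 40.6 FPKM against 58.5, 58.5 and 61.1 FPKM, a fold change of -0.54. SRP19, which helps assemble the particle's RNA, measured 27.6, 28.9 and 26.8 FPKM against 43.7, 39.4 and 41.8 FPKM, a fold change of -0.57. The remaining subunits SRP54, SRP68 and SRP9 stood at -0.39, -0.26 and -0.27. SRP9 and SRP14 pair on the end of the particle that pauses translation. SRP14 measured 194, 205 and 210 FPKM against 220, 218 and 218 FPKM, a small fall of 0.11 on the log2 scale (adjusted p = 0.0199) that turned into a rise of 0.14 after scaling (adjusted p = 0.00307). The deposited fall of SRP14 was lost without KDM4B replicate 1 (limma, adjusted p = 0.0801), vector replicate 1 (0.0524) or vector replicate 2 (0.051).

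The translocon held several of the largest falls, and they lay in the TRAP complex and in SEC63 more than in the Sec61 channel itself. TRAP is a complex of SSR1 to SSR4 that sits beside the channel and helps certain signal sequences to insert. SSR3 measured 46.3, 45 and 47.2 FPKM against 109, 102 and 112 FPKM, a fold change of -1.20 (SE 0.042, limma, adjusted p = 7.43e-10). SSR2 measured 140, 141 and 146 FPKM against 292, 296 and 287 FPKM, a fold change of -1.03 (SE 0.033, adjusted p = 3.77e-10). SSR1 measured 15.9, 15.4 and 16.4 FPKM against 31.1, 29.8 and 31.9 FPKM, a fold change of -0.92, and for all 3 genes the groups were far apart. SSR4, the remaining subunit, changed least, at 206 ± 4.48 FPKM against 253 ± 1.89 FPKM (SD, n = 3), with -0.29 as deposited and -0.05 after scaling, where its call was lost (adjusted p = 0.202).

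SEC63, a membrane protein that recruits the chaperone BiP to the channel, measured 21.0, 20.8 and 21.5 FPKM against 44.6, 41.5 and 44.9 FPKM, a fold change of -1.01 (adjusted p = 2.99e-09). Its partner SEC62 was reduced less, at 11.8 ± 0.159 FPKM against 16.3 ± 0.578 FPKM (SD, n = 3), a fold change of -0.43. The pore subunit SEC61A1 measured 177 ± 5.45 FPKM against 273 ± 3.78 FPKM (SD, n = 3), and it and the small subunits SEC61B and SEC61G fell by 0.62, 0.59 and 0.77 on the log2 scale. SEC61A2, the second pore paralog, was far lower in level, at 4.52 ± 0.317 FPKM against 4.64 ± 0.0451 FPKM (SD, n = 3), and its value was -0.03 as deposited (adjusted p = 0.646) and 0.17 after scaling (0.0155). Of the 10 tested translocon and TRAP genes 9 fell as deposited, and after scaling 8 fell, 1 (SEC61A2) rose and SSR4 did not pass. Their group median was -0.70, or -0.45 after scaling.

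All 5 signal peptidase genes fell as deposited and after scaling, the scaled call of SEC11A being lost without vector replicate 1 (adjusted p = 0.0563). SEC11C, one of the 2 catalytic subunits, measured 256, 239 and 251 FPKM against 434, 402 and 421 FPKM, a fold change of -0.75 (SE 0.039, limma, adjusted p = 1.54e-08). SEC11A, the other, changed less, at -0.34 and after scaling -0.10 (adjusted p = 0.0175), and its event counts did not pass (-0.12, edgeR, adjusted p = 0.0752). SPCS3, an accessory subunit needed for cleavage, measured 13, 12.4 and 12.3 FPKM against 24.2, 22.4 and 26.0 FPKM, the largest fall of the complex at -0.89. SPCS1 stood at 83.7, 86.1 and 82.7 FPKM against 133, 122 and 121 FPKM, and SPCS2 at 27.7, 28.04 and 29.9 FPKM against 41.2, 38.7 and 41.6 FPKM. As deposited, no library labelled KDM4B reached the vector range for any of the 5 genes, which held for 61.7% of all tested genes. On the scaled level all 5 also lay lower without overlap, against 35.9% of all tested genes.

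The COPII coat, which buds vesicles from the ER, held the largest fall of all members, in 1 of its 4 cargo adaptors. SEC24D measured 10.3, 10.4 and 10.1 FPKM against 30.9, 30.6 and 29.8 FPKM, so that the libraries labelled KDM4B held 33.8% of the vector level. The log2 fold change was -1.48 (SE 0.040, limma, adjusted p = 1.17e-10), and -1.25 after scaling. Reads of its skipped-exon event also fell, 102, 70 and 99 against 280, 307 and 293, a fold change of -1.48 (edgeR, adjusted p = 2.56e-12). The median of all genes in the event counts was -0.00, so this value compares with the scaled one rather than the deposited one. SEC24 proteins select cargo, and the 4 paralogs recognise overlapping but different export signals.

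The other SEC24 paralogs changed far less than SEC24D. SEC24A measured 10.5, 10.97 and 10.8 FPKM against 16.3, 16.6 and 16.8 FPKM, a fold change of -0.58 (adjusted p = 2.46e-07), while its event counts gave -0.05 (edgeR, adjusted p = 0.752). SEC24B stood at -0.50 and SEC24C at -0.29, and the call of SEC24C was lost after scaling (-0.06, adjusted p = 0.163). Among the SEC23 paralogs, which pair with SEC24 and switch off the coat's GTPase SAR1, SEC23B measured 51.6, 52.2 and 52.8 FPKM against 88.1, 85.7 and 88.3 FPKM. It fell by 0.73 on the log2 scale (adjusted p = 7.03e-09). SEC23A measured 30.95, 31.6 and 32.2 FPKM against 33.3, 34.9 and 36.1 FPKM, fell by 0.14 (adjusted p = 0.0124), and turned to a rise of 0.10 after scaling (adjusted p = 0.0394), a rise that did not pass once vector replicate 1 was left out (0.07, adjusted p = 0.134). The fall of SEC23A was lost without vector replicate 3 (adjusted p = 0.0625) and with a replicate block (0.0776).

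The outer coat is a cage of SEC13 and SEC31, and SEC16A marks the sites where the coat assembles. SEC13 measured 53.4, 50.6 and 50.97 FPKM against 80.7, 78.7 and 78.0 FPKM, a fold change of -0.61 (adjusted p = 5.71e-08). SEC31A stood at -0.29 and SEC16A at -0.39, and after scaling SEC31A was not called (-0.05, adjusted p = 0.213). All 9 tested COPII and SEC16 genes fell as deposited, and after scaling 6 fell, 1 (SEC23A) rose and 2 (SEC24C and SEC31A) did not pass. SEC16B and SEC31B, the other paralogs, lay under the filter, at most 0.03 and 1.03 FPKM.

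All 3 SEC22 genes, which encode SNARE-family proteins of the ER and Golgi, fell as deposited, and 2 of them after scaling. SEC22B, the SNARE of transport between ER and Golgi, measured 42.3, 46.2 and 43.9 FPKM against 75.8, 69.6 and 74.9 FPKM, a fold change of -0.72 (SE 0.046, limma, adjusted p = 8.21e-08). SEC22C measured 14.2, 14.7 and 15.2 FPKM against 25.9, 23.8 and 23.1 FPKM, a fold change of -0.68. SEC22A, the least abundant, measured 4.83, 4.88 and 5.26 FPKM against 6.51, 6.25 and 6.60 FPKM, and its fall of 0.32 on the log2 scale did not pass after scaling (-0.11, adjusted p = 0.0897).

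TMED proteins, also called p24 proteins, are cargo receptors that cycle between ER and Golgi in COPII and COPI vesicles, and all 9 tested members fell before and after scaling. Their median was -0.75 as deposited and -0.51 after scaling. TMED7 measured 14.8, 13.6 and 16.8 FPKM against 31.7, 31.1 and 33.8 FPKM, a fold change of -1.05 (SE 0.065, limma, adjusted p = 6.37e-08). TMED2 and TMED10 are the family's most studied pair and form a complex with TMED7 or other members. TMED2 measured 100, 106 and 107 FPKM against 186, 182 and 189 FPKM (-0.82), and TMED10 72.4, 70.6 and 77.5 FPKM against 132, 132 and 139 FPKM (-0.86). TMED9 measured 88.9, 88.4 and 90.1 FPKM against 155, 147 and 149 FPKM, a fold change of -0.75.

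The remaining tested TMED genes ran from -0.91 for TMED5 through -0.49 for TMED4, -0.46 for TMED1 and -0.44 for TMED8 to -0.34 for TMED3, whose scaled value was -0.10 (adjusted p = 0.0106). TMED6 lay under the filter at 0.23 to 0.51 FPKM. The readthrough gene TMED7-TICAM2, which joins TMED7 to its neighbour, was listed at 0.62, 0.72 and 0.72 FPKM against 0.56, 0.64 and 0.69 FPKM. Its skipped-exon event nonetheless had 574 to 695 reads against 1164 to 1259 reads, a log2 change of -0.70 (edgeR, adjusted p = 3.83e-11). Reads in exons shared with TMED7 cannot be told apart between these genes, and the same holds for TMED10 and its pseudogene TMED10P1 (1.11 ± 0.139 FPKM against 1.23 ± 0.169 FPKM, SD, n = 3).

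KDEL receptors return ER-resident chaperones that have escaped to the Golgi, and the 3 receptors changed by very different amounts. KDELR2 measured 54.1, 58.4 and 53.7 FPKM against 102, 98.7 and 103 FPKM, a fold change of -0.86 (SE 0.042, limma, adjusted p = 9.02e-09), and stood at -0.62 after scaling (adjusted p = 1.12e-07). KDELR1 measured 63.6, 68.1 and 65.4 FPKM against 73.1, 75.9 and 72.8 FPKM. Its deposited fall of 0.17 on the log2 scale (adjusted p = 0.00203) became 0.07 after scaling, which did not pass (adjusted p = 0.0604). KDELR3, a minor form here, measured 2.93, 2.30 and 2.83 FPKM against 3.11, 4.08 and 3.91 FPKM. Its fold change was -0.35 as deposited (adjusted p = 0.00502) and -0.16 after scaling, where it was not called (0.163), though it was as a fall of 0.25 without vector replicate 1 (0.0389). All 3 deposited falls were without overlap, while in the event counts KDELR2 passed (-0.66) and KDELR1 and KDELR3 did not (0.09 and -0.54, adjusted p = 0.295 and 0.0905).

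**Figure D3:**
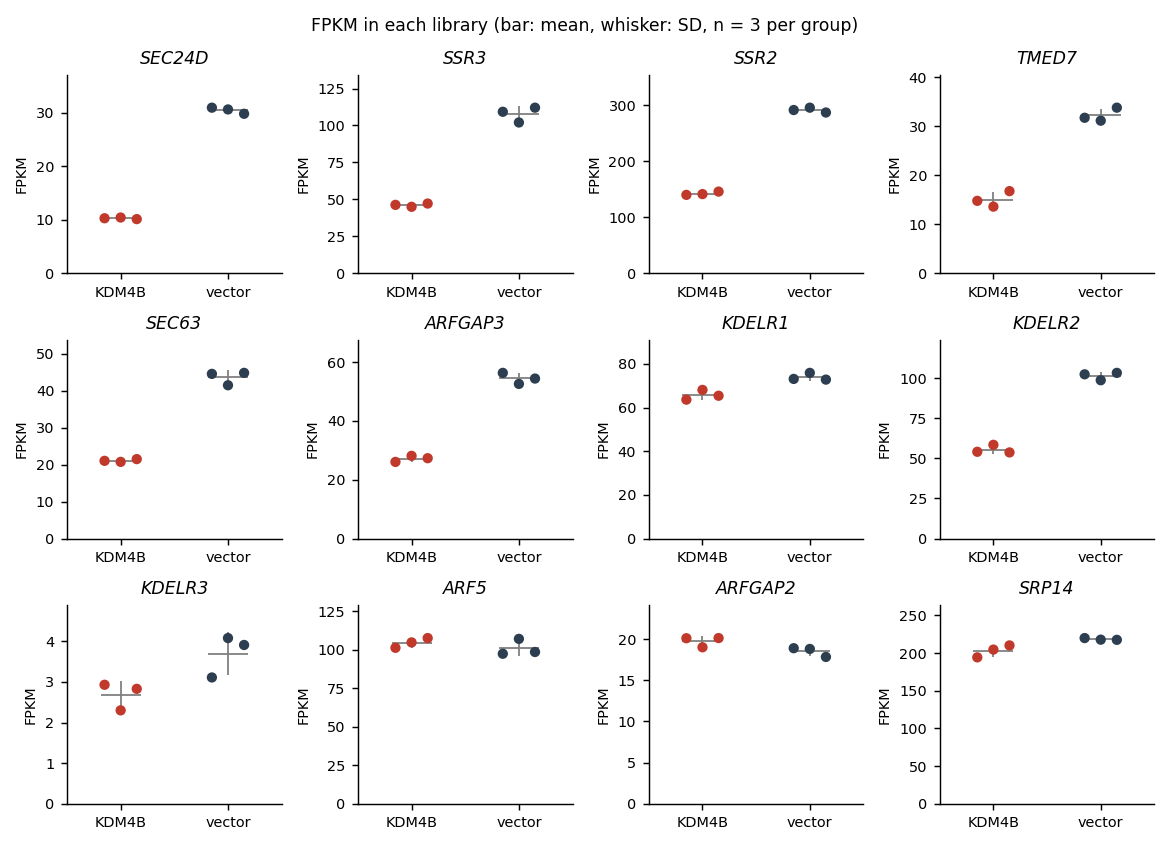
FPKM of 12 members (y axis, from 0) in each library (points) by group (x axis), with the mean as a bar and the SD as a whisker, n = 3 per group. SEC24D, SSR3, SSR2, TMED7, SEC63, ARFGAP3 and KDELR2 are well apart between groups, whereas ARF5 overlaps and ARFGAP2 is slightly higher in the libraries labelled KDM4B.

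The COPI coat, or coatomer, forms vesicles that carry cargo from the Golgi back to the ER, and all 7 of its tested genes in the symbol pattern fell as deposited. After scaling 6 fell, 0 rose and COPG2 did not pass. COPG1, a gamma subunit that binds cargo and ARF, measured 91.6, 90.3 and 92.2 FPKM against 166, 164 and 167 FPKM, the largest fall of the coat at -0.85 (SE 0.032, limma, adjusted p = 1.22e-09). Its paralog COPG2 was lower in level and changed less, at 13.9 ± 0.926 FPKM against 17.3 ± 0.178 FPKM (SD, n = 3), with -0.30 as deposited and -0.07 after scaling (adjusted p = 0.162).

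COPB1, COPA and COPE, whose promoters are printed above, follow COPG1 in order of p. COPB1, the beta subunit, measured 41.5, 43.2 and 43.9 FPKM against 73.4, 70.9 and 72.7 FPKM (-0.74). COPA, the alpha subunit of the outer layer, measured 42.0, 42.4 and 42.6 FPKM against 61.2, 61.8 and 62.4 FPKM (-0.54). COPE, the epsilon subunit, measured 155, 155 and 157 FPKM against 217, 221 and 209 FPKM (-0.47). The groups did not overlap for these genes or for COPB2 and COPZ1, which stood at -0.45 and -0.39. COPZ2 lay under the filter, at most 0.09 FPKM, and was listed at 0 in 1 vector library.

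ARF GTPases recruit coats to membranes and ARFGAPs switch them off. As deposited 6 of 8 genes fell and 0 rose, against 60.3% and 13.4% of all tested genes. After scaling 4 fell, 3 (ARF3, ARF5 and ARFGAP2) rose and ARFGAP1 did not pass, against 34% of all genes in each direction. More members rose after scaling than in any other group, but 3 of 8 is near that share. ARF1, the main COPI recruiter and the most abundant member of all, measured 283, 297 and 285 FPKM against 493, 473 and 474 FPKM, a fold change of -0.73 (SE 0.034, limma, adjusted p = 5.72e-09). ARFGAP3 measured 26.1, 28.1 and 27.3 FPKM against 56.3, 52.6 and 54.4 FPKM, a fold change of -0.98 (SE 0.043, adjusted p = 4.24e-09). ARF4, which acts with ARF1 at the early Golgi, measured 85.9, 87.8 and 97.5 FPKM against 136, 131 and 134 FPKM (-0.56). ARF6, which works at the cell surface and on endosomes, measured 27.1, 28.7 and 25.8 FPKM against 41.6, 41.6 and 44.3 FPKM (-0.63).

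ARF5, ARFGAP2 and ARF3 had values near 0 as deposited and above 0 after scaling. ARF5 measured 101, 105 and 108 FPKM against 97.4, 107 and 98.6 FPKM, overlapping groups with a value of 0.05 (limma, adjusted p = 0.314) that passed as a rise of 0.29 after scaling (adjusted p = 0.000109) and of 0.33 in the event counts (edgeR, adjusted p = 4.77e-06). ARFGAP2 measured 20.1, 19 and 20.1 FPKM against 18.9, 18.8 and 17.8 FPKM. Its value was 0.09 as deposited (adjusted p = 0.0901, or 0.0408 without KDM4B replicate 2), 0.32 after scaling (0.00014) and 0.47 in the event counts (edgeR, adjusted p = 0.000653). ARF3 measured 84.2, 85.7 and 84.3 FPKM against 90.4, 90.9 and 94.5 FPKM, a fall of 0.12 on the log2 scale (adjusted p = 0.01) that turned to a rise of 0.13 after scaling (adjusted p = 0.00407). The fall of ARF3 was lost without vector replicate 3 (adjusted p = 0.0526) and with a replicate block (0.154).

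The 2 remaining tested symbols were not called as deposited. SEC23IP, a partner of SEC23 at ER exit sites, measured 12.9, 14.5 and 12.96 FPKM against 13.9, 14.6 and 14.6 FPKM, with -0.09 as deposited (adjusted p = 0.123, or 0.0178 as a fall without KDM4B replicate 2), and 0.13 after scaling (0.02), a call lost without vector replicate 1 (0.0671). The pseudogene TMED10P1 was at 1.04, 1.02 and 1.27 FPKM against 1.27, 1.04 and 1.37 FPKM. The other untested symbols were the transcripts COPG2IT1 and SEC24B-AS1 and the pseudogene TMED11P, with at most 0.16, 1.10 and 0.91 FPKM in any library.

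**Figure D4:**
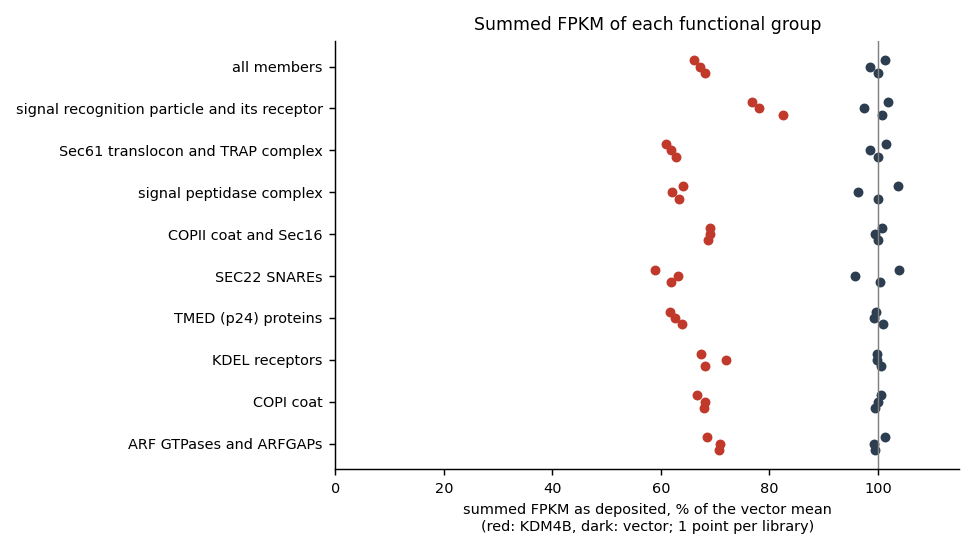
Summed FPKM as deposited of each functional group in every library (x axis, percent of the vector mean), with groups on the y axis and 1 point per library. The points of the libraries labelled KDM4B lie below all vector points in each group shown, with means from 61.3% for the SEC22 genes to 79.1% for the signal recognition particle and its receptor. After scaling, which is not drawn, the means of these 2 groups were 72.5% and 93.7%.

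As deposited, a log2 fold change of -1 or less on log2(FPKM + 1) was reached by 5 members and by 3.42% of all tested genes. The 5 members were SEC24D, SSR3, TMED7, SSR2 and SEC63. After scaling this cut was reached by SEC24D alone, against 2.04% of all tested genes. ARFGAP3 missed the cut as deposited at -0.98, although its mean FPKM was 49.9% of the vector mean.

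Ratios within a family do not depend on how a library is scaled, so the share of each paralog in its family's FPKM was compared next. Of 22 shares in 11 families, 17 differed without overlap between the groups, among them COPZ2, which lies under the expression filter. Of all tested genes, 35.9% lay lower and 35.8% higher without overlap on the scaled level, which measures single genes and not shares. Shares within a family move each other, and those of other families were not computed. Whether the count is particular to these families was therefore not tested. An exact permutation test of 3 against 3 libraries, two-sided, cannot give less than p = 0.1, and the smallest adjusted p over the 22 shares was 0.129, so none passes a threshold of 0.05. SEC24D made up 14.02% ± 0.15 (SD, n = 3) of SEC24 FPKM in the libraries labelled KDM4B and 26.8% ± 0.30 (SD, n = 3) in the vector libraries. SEC24C made up 59.1% ± 0.72 and 47.1% ± 0.38 (SD, n = 3), and the share of SEC24A overlapped between groups.

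Among the ARFGAPs, ARFGAP3 held 38.0%, 40.1% and 38.4% of the family against 54.2%, 53.0% and 55.1%. ARFGAP2 held 28.2% ± 1.11 against 18.4% ± 0.47 (SD, n = 3). The most abundant ARFGAP transcript was ARFGAP3 in both groups. KDELR2, in contrast, held 44.8%, 45.4% and 44.0% of the KDEL receptor FPKM against 57.3%, 55.2% and 57.4%, and KDELR1 held 53.1% ± 0.49 against 41.3% ± 1.06 (SD, n = 3). The leading KDEL receptor was thus KDELR1 in every library labelled KDM4B and KDELR2 in every vector library.

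SEC23B held 62.3% ± 0.20 of SEC23 FPKM against 71.5% ± 0.90 (SD, n = 3). SEC11C held 81.7% ± 0.74 of its pair against 85.5% ± 0.35 (SD, n = 3). ARF1 held 48.4% ± 0.87 of the ARF FPKM against 56.5% ± 0.77, and ARF5 17.6% ± 0.32 against 11.9% ± 0.70 (SD, n = 3). COPG2 held 13.2% ± 0.86 against 9.47% ± 0.11 (SD, n = 3). The shares of SEC16B, SEC31B, KDELR3 and ARF4 overlapped between groups, as did that of SEC24A.

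**Figure D5:**
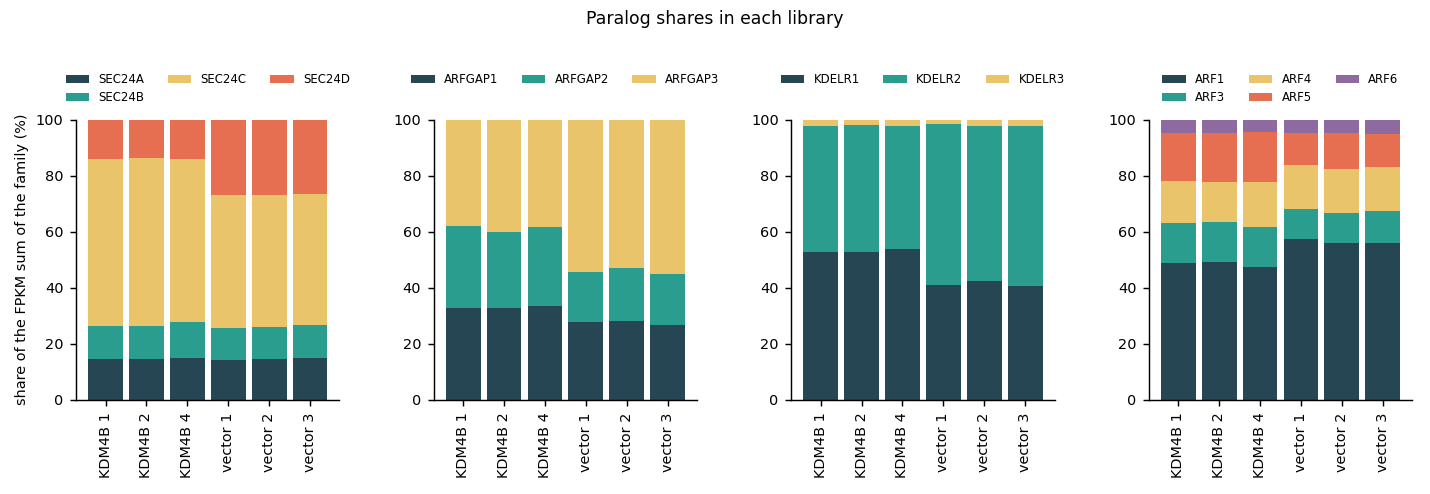
Share of each paralog in the FPKM of its family (y axis, percent) in each of the 6 libraries (x axis) for the SEC24, ARFGAP, KDEL receptor and ARF families. The SEC24D, ARFGAP3, KDELR2 and ARF1 bands are narrower in all 3 libraries labelled KDM4B, for example 14.02% against 26.8% for SEC24D.

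The series was made to find changes in splicing, and the deposited event counts allow a limited test of it in these genes. Both splice forms could be recovered for 42 of 257 skipped-exon events and 22 of 58 mutually exclusive exon events of the members. Enough reads of both forms were found for 8 skipped-exon events in 3 genes (SEC16A, SEC31A and ARF4) and 22 exclusive-exon events in 14 genes. Of these 0 passed (edgeR, Benjamini-Hochberg over all events of a type), against 5.5% of all skipped-exon and 1.63% of all exclusive-exon events. At an unadjusted p under 0.05 there were 0 and 1, and DESeq2 called 0 of either type.

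The lowest p belonged to an exclusive-exon pair of SEC16A. Its first exon had 7, 9 and 2 reads against 4, 3 and 2 reads, a share of 1.29% ± 0.77 against 0.496% ± 0.16 (SD, n = 3), and the difference did not pass (edgeR, log2 odds ratio 1.37, SE 0.59, adjusted p = 0.382). In SSR1 the first exon of a pair took 67.5% ± 2.71 against 63.7% ± 1.60 of 479 to 941 reads per library (adjusted p = 0.594). In SEC23IP it took 50.2% ± 3.32 against 44.7% ± 4.0 of 248 to 304 reads (adjusted p = 0.637). Neither difference was detectable at these depths.

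Genes related to the same route that the symbol pattern leaves out moved alike in number. Of 68 tested genes in 5 related lists, 61 fell and 3 rose as deposited, and 49 fell and 9 rose after scaling. Their medians were -0.52 and -0.29. These 68 genes include 8 transcription factors, which are not parts of the route. All 8 fell before and after scaling, so the pooled counts and medians are not those of route genes alone. The shares over all tested genes were 60.3% and 13.4% as deposited and 34% in each direction after scaling, and the counts of the single lists stand beside the same background. Of 33 ER exit, tethering and fusion factors 29 fell and 2 rose, and 19 and 6 after scaling. CTAGE5, a partner of the collagen export factor MIA3 at ER exit sites, measured 7.55, 7.46 and 8.37 FPKM against 33.6, 28.2 and 29.4 FPKM, a fold change of -1.83 (SE 0.066, limma, adjusted p = 8.80e-10). The tether USO1 stood at 24.8 ± 0.37 FPKM against 42.8 ± 0.85 FPKM and YIF1A at 58.6 ± 0.38 FPKM against 88.7 ± 2.17 FPKM (SD, n = 3).

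Of the 10 cargo receptors 9 fell and 1 rose, before and after scaling. LMAN1, a lectin that carries glycoproteins out of the ER, measured 39.6, 37.9 and 41.1 FPKM against 84.1, 84.0 and 89.3 FPKM (-1.10, limma, adjusted p = 1.61e-09). Its cofactor MCFD2 measured 22.99, 21.4 and 23.3 FPKM against 40.8, 38.5 and 39.8 FPKM (-0.79). ERGIC1 stood at 160 ± 1.48 FPKM against 312 ± 10.6 FPKM (SD, n = 3).

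All 13 translocon partners and oligosaccharyltransferase genes, which add sugars to chains entering the ER, fell as deposited, and 12 fell after scaling. RPN1 measured 127, 128 and 126 FPKM against 220, 220 and 221 FPKM (-0.79), TMEM258 114 ± 2.64 against 198 ± 0.81 FPKM and STT3A 73.4 ± 2.01 against 122 ± 1.68 FPKM (SD, n = 3). The COPI delta subunit gene ARCN1 and the ARF exchange factors gave a mixed picture, with 2 of 4 falling and 0 rising as deposited, where 60.3% of all genes fell, and 1 falling and 2 rising after scaling. ARCN1 stood at -0.37 (-0.13 after scaling), ARFGEF1 at -0.18 (0.04) and ARFGEF2 at -0.06 (0.17). The fourth gene, the Golgi exchange factor GBF1, stood at 0.01 as deposited (adjusted p = 0.742) and 0.25 after scaling, where it passed as a rise, as it did at 0.27 in the event counts (edgeR, adjusted p = 0.00209).

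The list of transcription factors joins regulators of the ER stress response and of secretory genes, among them DDIT3, which is known for stress and cell death rather than secretion. All 8 tested factors fell before and after scaling, with medians of -1.0 and -0.78. CREB3L4, an androgen-regulated factor of prostate cells, measured 42.6, 41.3 and 44.1 FPKM against 124, 129 and 127 FPKM, a fold change of -1.55 (SE 0.038, limma, adjusted p = 6.44e-11). XBP1, which binds the UPRE core described above, measured 117, 120 and 124 FPKM against 245, 234 and 233 FPKM, a fold change of -0.98 (adjusted p = 1.28e-09). ATF4 measured 346, 344 and 364 FPKM against 675, 648 and 617 FPKM (-0.88). Whether any of these bears on the members was not tested.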

How the data were processed

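Total RNA of the 6 LNCaP libraries was extracted with Trizol, per the labels. The submitters' processing notes list HISAT, StringTie, Cufflinks, GRCh38 and hg38, with no role or version given. The authors deposited gene-level FPKM with 2 decimals and whole read counts per splicing event, not normalized. The skipped-exon counts of a library add up to 14212396 to 14787321 (label KDM4B) or 16451082 to 17021204 (vector); events share reads, so these are not depths, and the depth behind FPKM is unknown.

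FPKM were tested with limma 3.58.1 (R 4.3.3, mean-variance trend, two-sided) on log2(FPKM + 1), and event counts (at least 10 reads in each library) with edgeR 4.0.16 quasi-likelihood tests after TMM, each over the whole table. Splice forms were recovered from sets of 2 skipped-exon events and 1 exclusive-exon event on the same exons; 19478 of 19482 recovered values were even and not negative. Form tests needed at least 10 reads in each library and 10 of each form over all libraries. Event positions are not printed, since 24 of 257 member exons lie inside their gene on GRCh38. The A5SS and RI counts were not used here. Replicates differed by more than sampling noise (chi-square per degree of freedom 2.42 to 2.96 within groups).

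The symbol pattern uses no measured value, but members, lists and tests were chosen with earlier results of these data known. Values per library are given for up to 4 members of each functional group and 3 of each related list with the lowest p, for all KDEL receptors, and for members called in opposite directions as deposited and after scaling; ARF5, ARFGAP2, SSR4, SEC62, GBF1, DDIT3 and other genes named beyond these were chosen after their values were seen. Marker lists were luminal, basal (KRT5 and TP63 not analysed here) and stromal, immune and endothelial (DCN not analysed here). Other pseudocounts, filters, scalings, variance models and tests (DESeq2 1.42.0), a replicate block and fits without each library served as alternatives. Tests were checked on simulated data.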

Additional observations from a re-analysis of the deposited data

How the results depend on the processing

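The 59 members that fell as deposited numbered 57 to 60 when each library was left out in turn, and 0 to 1 rose, the 1 being ARFGAP2 without KDM4B replicate 2. With a replicate block 57 fell and 0 rose, and in the event counts 33 fell and 2 rose, against 36 and 3 without it. Only replicate numbers 1 and 2 occur in both groups, so under the block the group difference rests on the libraries with these numbers alone. The labels tie the numbers to nothing. Deviations of same-numbered libraries correlated at -0.02 and 0.13, so the numbers were not taken as pairs. Leaving out libraries gave 32 to 36 falls and 2 to 4 rises in the event counts, 59 to 61 falls and 3 rises in the related lists, and 17 to 19 paralog shares without overlap. Splice forms gave 0 calls under every alternative run.

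The number of members that rose went from 0 to 7 after scaling, 5 after scaling without vector replicate 1 (added after seeing the data) and 2 after rescaling without ribosomal RNA. Rises in the related lists went from 3 to 9, 9 and 5 in the same order. Dividing by a lower factor in the libraries labelled KDM4B moves every gene upward by construction. Signs turned after scaling for SRP14 (0.14), ARF3 (0.13), KDELR1 (0.0726), SEC23A (0.10), SEC23IP (0.13), SEC61A2 (0.17) and the pseudogene TMED10P1 (0.0545). After scaling without vector replicate 1 those that turned included SRP14 (0.14), ARF3 (0.12), KDELR1 (0.066), SRP68 (0.0127), SEC23A (0.0732), ARFGAP1 (0.00829), SEC61A2 (0.18) and SEC23IP (0.114). Without ribosomal RNA they turned for SRP14 (0.0359), ARF3 (0.0246), SEC23A (0.00304), SEC61A2 (0.0865) and SEC23IP (0.0395). FPKM carry no counts, so counting error of low members such as KDELR3 is unknown.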
